A study of Gossypium barbadense and Gossypium hirsutum with 4 samples.

Results

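Some probe sets of the cotton array were designed on sequence of Gossypium raimondii, a wild diploid relative of the cultivated cottons, and a small number of them gave strong signal in the fibres of both cultivated species. They were chosen by ID and level: the prefix Gra or GraAffx, and a log2 signal above 11 on all 4 arrays. This rule found 181 of the 7068 Gra and GraAffx probe sets on the array (2.56%), 114 with the prefix Gra and 67 with GraAffx, out of 24029 probe sets without the AFFX prefix of array controls. The values that chose them are the signals of these same arrays, so the levels below are a description. The rule used no difference between the fibres, but a probe set low in 1 genotype could not enter, which limits how wide a difference a chosen one can show.

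Fibre at 11 days post-anthesis was compared between VH8-4602, a genotype of Gossypium barbadense, and Guazuncho 2, a genotype of Gossypium hirsutum. There were 2 arrays per genotype, of the one-colour Affymetrix cotton design, with biotin-labelled RNA. All plants were raised from seed in soil in a glasshouse under natural light, and none was treated. Whether the 2 samples of a genotype are from separate plants is not in the labels, and p-values therefore cover just the spread of these samples, possibly a technical one.

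Cotton fibres are single cells that grow out of the epidermis of the seed coat, first lengthening and later laying down a wall of cellulose. Upland cotton (G. hirsutum) and the long-fibred G. barbadense are both allotetraploids, which carry a genome of an A-type diploid beside a genome of a D-type diploid. G. raimondii is the living species closest to the donor of the D genome, and it forms no spinnable fibre. A transcript of cultivated cotton can therefore bind probes designed on G. raimondii where their sequences match. Signal on such a probe set does not tell from which of the genomes of the cultivated plant the transcript came.

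The ending of a probe set ID tells how specific its probes were meant to be. In the naming used by Affymetrix, _at stands for probes of a single transcript, _a_at for probes shared by alternative forms of 1 gene, _s_at for probes shared by several transcripts, and _x_at for sets in which some probes also match other sequences. The files and tables used here pair no probe set with a gene, so members are given by ID, and neither gene families nor markers of fibre cells could be looked up. No probe or target sequence was in the files used here.

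The authors' normalization, GCRMA, sets the arrays to 1 distribution, so the share of probe sets above a level is much the same on each by construction. The share of the 24029 probe sets above log2 11 was 11.0% and 11.0% on the VH8-4602 arrays, against 10.8% and 10.9% on the Guazuncho 2 arrays. The median signal of the 181 members was 12.35 and 12.31 on the VH8-4602 arrays, against 12.48 and 12.42 on those of Guazuncho 2. The precision is limited by the number of arrays. Within a genotype the arrays lay close: the median gap between replicates over the members was 0.09 in VH8-4602 and 0.06 in Guazuncho 2.

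The bright raimondii-designed probe sets were nearly all of the kinds whose probes are shared between transcripts. Of the 181, 147 ended in _s_at (81.2%), 27 in _x_at (14.9%), 6 in _at (3.31%) and 1 in _a_at. Among all 7068 Gra and GraAffx probe sets on the array, 3383 ended in _s_at (47.9%), 385 in _x_at (5.45%), 3085 in _at (43.6%) and 215 in _a_at. Among the 2019 Ghi and GhiAffx probe sets above log2 11 on all arrays, taken by their prefix as designed on G. hirsutum, 1295 ended in _s_at (64.1%), 208 in _x_at (10.3%), 486 in _at (24.1%) and 30 in _a_at. These shares are descriptions and their differences were not tested.

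Read the other way, the share of designs that reached the bar varied with suffix and prefix. Of the Gra and GraAffx probe sets, 4.35% of _s_at, 7.01% of _x_at, 0.194% of _at and 0.465% of _a_at exceeded log2 11 on all arrays. Of the Ghi and GhiAffx probe sets, 22.3% of _s_at, 17.9% of _x_at, 5.07% of _at and 12.4% of _a_at did so. Over all suffixes the shares were 2.56% for Gra and GraAffx, and 12.02% for Ghi and GhiAffx. Both _s_at and _x_at designs thus reached the bar more often than _at designs under each pair of prefixes, as a count on these arrays and without a test. Within the raimondii designs, 3.33% of Gra and 1.84% of GraAffx probe sets were above the bar.

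Most of these probe sets differed by less than 2-fold between the fibres of VH8-4602 and Guazuncho 2. At 2-fold or more stood 13 of the 181 (7.18%), beside 17.7% of all probe sets tested and 5.002% of the bright Ghi and GhiAffx probe sets. The median size of the log2 difference was 0.26, or a factor of 1.20, and 89 of the 181 differed by less than 0.25 (49.2%). The median signed difference, VH8-4602 minus Guazuncho 2, was -0.01, with 86 probe sets higher and 95 lower in VH8-4602 by any amount. Among all 12603 probe sets tested the median size was 0.37 and the median difference 0.05. The central 90% of the members lay between -1.14 and 0.68. Among the bright Ghi and GhiAffx probe sets the median size and the median difference were 0.24 and 0.05, and 51.5% differed by less than 0.25.

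Of the 181, 69 passed the test (38.1%), 33 higher and 36 lower in VH8-4602. The test was limma over all 12603 probe sets with a Benjamini-Hochberg adjusted p under 0.05, and 45.9% of these passed, 25.1% higher and 20.9% lower in VH8-4602. Of the bright Ghi and GhiAffx probe sets 35.5% passed, 19.9% higher and 15.7% lower. The members' share lay between these backgrounds. Both arrays of 1 genotype lay beyond both arrays of the other in 149 members (82.3%), close to the 78.4% of all probe sets tested and the 79.8% of the bright Ghi and GhiAffx probe sets.

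The number of calls depended on the setting and on the arrays at hand. With an intensity trend in limma 97 members passed (53.6%, beside 50.4% of all probe sets tested), 43 higher and 54 lower in VH8-4602. In an unmoderated fit 29 passed (16.02%, beside 14.9%), 14 higher and 15 lower. Under both settings the members' share was thus slightly above that of all probe sets tested, unlike in the fit reported. Without 1 array at a time, 32 (without VH8-4602 replicate 2) to 40 (without VH8-4602 replicate 1) members passed, with 33 without Guazuncho 2 replicate 1 and 35 without Guazuncho 2 replicate 2. These were 17.7% to 22.1% of the members, beside 31.9% to 36.5% of all probe sets tested. The direction of small differences depended on the scale. The 27 hybridization controls are probe sets for RNA spiked into every sample at set amounts, and their means were 11.24 ± 0.01 on VH8-4602 arrays and 10.95 ± 0.14 on Guazuncho 2 arrays (SD, n = 2). With them set equal, the median of all probe sets tested moved to -0.24 from 0.05. Then 73 members passed (40.3%, beside 44.6% of all probe sets tested), 8 higher and 65 lower in VH8-4602. This scale moves every probe set alike, and directions on it were counted for the members only, so no background stands beside that split. Directions below refer to the deposited scale.

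Wide differences were mostly lower in VH8-4602. At 2-fold or more, 12 members were lower and 1 was higher in VH8-4602, or 6.63% and 0.552% of the 181. Among all probe sets tested these shares were 9.33% lower and 8.38% higher. Among the bright Ghi and GhiAffx probe sets, which met the same bar, they were 2.72% lower (55) and 2.28% higher (46). Leaving out 1 array at a time gave 11 or 12 members lower and 1 to 3 higher by 2-fold, and with the hybridization controls set equal 15 were lower and 0 higher. The scale of equal hybridization controls moves every probe set alike towards lower in VH8-4602. No test was made of the split of wide differences, since the members were chosen with such values known.

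Gra.2891.1.S1_s_at had the widest difference of the group. It read 11.44 and 11.51 on the VH8-4602 arrays, against 13.70 and 13.22 on the Guazuncho 2 arrays. The gap between the genotypes was several times the gap between either pair of replicates. The log2 difference was -1.98 with an SE of 0.18, or 3.96-fold lower in VH8-4602 (limma adjusted p = 0.00191). With limma's moderation left out, its adjusted p was 0.0642.

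Gra.2038.1.A1_s_at read 11.80 and 11.83 in VH8-4602, against 13.57 and 13.52 in Guazuncho 2. Its replicates were among the tightest of the 6 widest, and the difference of -1.73 had an SE of 0.09 (limma adjusted p = 0.000421). Gra.2239.1.S1_s_at read 11.83 and 11.58 in VH8-4602, against 13.35 and 13.49 in Guazuncho 2, a difference of -1.71 (SE 0.13, limma adjusted p = 0.00113). In both probe sets, chosen for wide differences, the arrays of the genotypes did not overlap, which that choice made likely beforehand. Gra.2912.1.A1_s_at read 12.27 and 12.03 in VH8-4602, against 13.66 and 13.69 in Guazuncho 2, and differed by -1.52 (SE 0.11, limma adjusted p = 0.0012).

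A pair of _x_at probe sets of 1 ID number fell together. Gra.2508.1.A1_x_at read 13.20 and 12.95 in VH8-4602, against 14.67 and 14.66 in Guazuncho 2, a difference of -1.59 (SE 0.12, limma adjusted p = 0.00111). Gra.2508.2.S1_x_at read 12.96 and 12.79 in VH8-4602, against 14.44 and 14.41 in Guazuncho 2, a difference of -1.55 (SE 0.10, limma adjusted p = 0.000841). Their shared number and the _x_at suffix mean that they may read overlapping transcripts, so they are not independent. The other 6 members lower by at least 2-fold were GraAffx.8958.1.S1_s_at, GraAffx.33115.2.S1_s_at, Gra.1492.1.S1_x_at, Gra.3009.4.S1_s_at, GraAffx.25147.2.S1_s_at and Gra.1953.2.S1_s_at, named after their values were seen. Their differences ran from -1.40 to -1.07, and each passed the test (limma adjusted p from 0.001 to 0.00582).

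Among the probe sets higher in VH8-4602, Gra.41.1.S1_s_at alone exceeded 2-fold with all arrays. It read 12.41 and 12.61 on the VH8-4602 arrays, against 11.45 and 11.44 on the Guazuncho 2 arrays. The difference was 1.06 with an SE of 0.11 (limma adjusted p = 0.00241), and its adjusted p was 0.0535 with limma's moderation left out. GraAffx.28690.1.S1_s_at stood just short of 2-fold, with 12.67 and 12.52 in VH8-4602 and 11.59 and 11.60 in Guazuncho 2 (difference 1.00, SE 0.10, limma adjusted p = 0.00227). The arrays of the genotypes were far apart in both, which were chosen for wide differences.

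The next 4 by size among those that passed the test also gave groups that did not overlap, which their choice as wide differences made likely beforehand. GraAffx.34205.2.A1_s_at read 14.17 and 14.34 in VH8-4602, against 13.35 and 13.21 in Guazuncho 2 (difference 0.98, SE 0.11, limma adjusted p = 0.00341). Gra.2931.1.S1_s_at read 13.48 and 13.39 in VH8-4602, against 12.47 and 12.50 in Guazuncho 2 (difference 0.95, SE 0.09, limma adjusted p = 0.00209). For Gra.1784.1.A1_s_at the signals were 12.25 and 12.35 in VH8-4602, against 11.37 and 11.39 in Guazuncho 2 (difference 0.92, SE 0.09, limma adjusted p = 0.00228). The replicates of Gra.2927.1.S1_s_at lay wider apart in VH8-4602, at 12.44 and 12.14, than in Guazuncho 2, at 11.50 and 11.44. Its difference was 0.82 (SE 0.13, limma adjusted p = 0.00869). Neither GraAffx.34205.2.A1_s_at (adjusted p = 0.0608) nor Gra.2927.1.S1_s_at (adjusted p = 0.0946) passed in an unmoderated fit.

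The probe sets with the highest signal gave small differences. The 6 with the highest value on their lowest array were Gra.2810.2.A1_s_at, Gra.635.1.A1_x_at, Gra.1759.1.S1_s_at, Gra.377.1.A1_s_at, Gra.2930.1.S1_s_at and Gra.561.2.S1_s_at, and none passed the test, while 1, Gra.377.1.A1_s_at, had an unadjusted limma p under 0.05. Gra.2810.2.A1_s_at read 15.83 and 15.76 in VH8-4602, against 15.95 and 15.96 in Guazuncho 2, a difference of -0.16 (SE 0.09, limma adjusted p = 0.189). It passed with an intensity trend in limma (adjusted p = 0.0338), and on the scale of equal hybridization controls (a difference of -0.46, adjusted p = 0.039). Gra.635.1.A1_x_at read 15.59 and 15.51 in VH8-4602, against 15.56 and 15.54 in Guazuncho 2, and its arrays overlapped (limma adjusted p = 0.998). Gra.1759.1.S1_s_at read 15.42 and 15.53 in VH8-4602, against 15.41 and 15.40 in Guazuncho 2, without overlap (limma adjusted p = 0.582). The differences of Gra.2930.1.S1_s_at and Gra.561.2.S1_s_at were 0.20 (limma adjusted p = 0.200) and -0.01 (limma adjusted p = 0.928). Gra.377.1.A1_s_at did not overlap, at 15.45 and 15.51 in VH8-4602 and 15.22 and 15.19 in Guazuncho 2. Its difference of 0.28 (SE 0.09) lay next to the threshold (limma adjusted p = 0.0552), and it passed with an intensity trend (0.0054), with no filter (0.0265) and with a filter at log2 6 (0.0451). It did not pass without any 1 of the arrays (adjusted p from 0.117 to 0.167), and on the scale of equal hybridization controls its difference was -0.016 (adjusted p = 0.939).

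Of the 19 members with a mean signal above 14, 2 passed the test (10.5%). They were Gra.882.3.S1_at, with a difference of -0.54, and Gra.1075.1.A1_x_at, which was named after its values were seen and read 14.43 and 14.28 in VH8-4602, against 14.04 and 13.93 in Guazuncho 2 (limma adjusted p = 0.0404). The median size of the difference was 0.15 in these 19. Of the 204 bright Ghi and GhiAffx probe sets with means above 14, 47 passed (23.04%), with a median size of 0.14. Among the 63 members with means of 11 to 12 the median size was 0.24 and 26 passed (41.3%), beside 33.1% of the bright Ghi and GhiAffx probe sets in that range. For the 60 with means of 12 to 13 it was 0.31 and 26 passed (43.3%), beside 41.9%, and for the 39 with means of 13 to 14 it was 0.26 and 15 passed (38.5%), beside 34.8%.

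Among the 6 members with the suffix _at, whose probes were meant for a single transcript, 2 passed the test (33.3%), in opposite directions. Beside this, 34.4% of the 486 bright Ghi and GhiAffx _at probe sets and 45.9% of all probe sets tested passed. Gra.882.3.S1_at read 14.60 and 14.65 in VH8-4602, against 15.15 and 15.18 in Guazuncho 2 (difference -0.54, SE 0.09, limma adjusted p = 0.00844). Gra.695.2.A1_at read 11.84 and 11.84 in VH8-4602, against 11.41 and 11.46 in Guazuncho 2 (difference 0.41, SE 0.09, limma adjusted p = 0.0189). That of Gra.695.2.A1_at was lost without any 1 of the arrays (adjusted p from 0.0583 to 0.0804), and on the scale of equal hybridization controls (a difference of 0.11, adjusted p = 0.541). The other 4 are named because the suffix is rare here, after their values were seen. Gra.1526.1.A1_at differed by 0.31 (limma adjusted p = 0.0594), Gra.2443.1.S1_at by 0.19 (0.133) and GraAffx.9235.1.S1_at by -0.31 (0.113), and in each the genotypes did not overlap. Gra.1992.2.A1_at overlapped, with 14.02 and 13.41 in VH8-4602 and 13.74 and 13.78 in Guazuncho 2.

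Calls in both directions were found among the _s_at and _x_at members. Of the 147 _s_at members 59 passed (40.1%), 29 higher and 30 lower in VH8-4602, beside 36.1% of the bright Ghi and GhiAffx _s_at probe sets. Of the 27 _x_at members 8 passed (29.6%), 3 higher and 5 lower, beside 35.1% of the bright Ghi and GhiAffx _x_at probe sets. The median size was 0.25 for both suffixes. The widest _x_at member in the upward direction was Gra.1517.1.A1_x_at, at 13.21 and 13.16 in VH8-4602 and 12.48 and 12.59 in Guazuncho 2 (difference 0.65, limma adjusted p = 0.00647). Its call was lost with limma's moderation left out (adjusted p = 0.054), and on the scale of equal hybridization controls (a difference of 0.35, adjusted p = 0.0764).

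The single _a_at member, GraAffx.16871.1.S1_a_at, had the widest replicate spread of the 181. It read 12.60 and 13.34 in VH8-4602, against 11.76 and 12.30 in Guazuncho 2. The genotypes did not overlap, yet the replicate gaps of 0.75 and 0.53 came close to the difference of 0.94 (SE 0.32, limma adjusted p = 0.0686). It passed with an intensity trend (0.0348), with a filter at log2 6 (0.0491) and, at a difference of 1.31, without VH8-4602 replicate 1 (0.0439). The difference shrank to 0.57 without VH8-4602 replicate 2 (adjusted p = 0.204) and to 0.67 without Guazuncho 2 replicate 1 (0.218), and in an unmoderated fit the adjusted p was 0.271. Gra.1992.2.A1_at was the only other member with a replicate gap over 0.5.

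By prefix, 41 of the 114 Gra members passed (36.0%), 18 higher and 23 lower in VH8-4602. Of the 67 GraAffx members 28 passed (41.8%), 15 higher and 13 lower. Beside these stood 45.9% of all probe sets tested and 35.5% of the bright Ghi and GhiAffx probe sets. The median difference was -0.07 for Gra and 0.05 for GraAffx. The last field of each ID also carries a letter, S or A, whose meaning the sources used here do not give. Of the 102 members with S, 41 passed (40.2%), 13 higher (12.7%) and 28 lower (27.5%) in VH8-4602. Of the 79 with A, 28 passed (35.4%), 20 higher (25.3%) and 8 lower (10.1%). Among all probe sets tested, 25.1% passed higher and 20.9% lower. Calls were split by letter for the members only, so no background by letter stands beside this split. This split was noticed in the data and not tested. The letter A stood in 43.6% of the members, in 65.3% of all Gra and GraAffx probe sets and in 24.7% of the bright Ghi and GhiAffx probe sets.

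The 181 members carried 179 ID numbers, so few shared a design cluster with another member. Besides Gra.2508, the number GraAffx.14922 was held by a pair of members. GraAffx.14922.5.A1_s_at read 12.13 and 12.16 in VH8-4602, against 11.88 and 11.82 in Guazuncho 2 (difference 0.29, limma adjusted p = 0.0493). GraAffx.14922.1.S1_s_at read 12.85 and 12.94 in VH8-4602, against 12.80 and 12.78 in Guazuncho 2 (difference 0.11, limma adjusted p = 0.375). The first of these calls was marginal. It was lost without any 1 of the arrays (adjusted p from 0.117 to 0.163), with quantile normalization (0.0607), with median centring (0.0752) and with limma's moderation left out (0.0607), and on the scale of equal hybridization controls its difference was -0.0026.

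Of the members, 80 had at least 1 other probe set of the same prefix and number on the array, which gave 96 partners that were not members. Of these partners 54 were bright enough to be tested, which gave 55 pairs of a member and a tested partner. In 9 of the 55 pairs both passed. Taken singly, 38.1% of the members and 45.9% of all probe sets tested passed. The direction was the same in 8 of the 9 pairs, and no test was made of this. Among the 8, Gra.2030.1.S1_s_at and Gra.2038.1.S1_s_at had means of 3.30 and 2.78 in VH8-4602, under the filter of log2 4. Both entered the test only through their Guazuncho 2 arrays, which fixed their direction as lower in VH8-4602. Their pairs therefore say nothing on a shared direction. The partners were much dimmer than the members, with a median level of 4.39 over the 96. GraAffx.34205.1.A1_at, with a mean of 5.48, differed by 0.95, beside 0.98 for its member GraAffx.34205.2.A1_s_at, with a mean of 13.77. Gra.882.1.A1_x_at, with a mean of 6.56, differed by -0.65, beside -0.54 for Gra.882.3.S1_at, with a mean of 14.90. Gra.2038.1.S1_s_at was also lower in VH8-4602, but its mean there was 2.78, under the filter of log2 4, against 5.59 in Guazuncho 2, so the size of its difference is not set beside that of Gra.2038.1.A1_s_at. The exception was Gra.385, in which Gra.385.1.S1_x_at was lower in VH8-4602 (-0.74, limma adjusted p = 0.0131) and Gra.385.1.A1_s_at higher (0.48, limma adjusted p = 0.013). These probe sets were named after their values were seen. Some pairs of 1 number may read the same transcript, but the IDs as explained here do not tell which do. The pairs of Gra.385, Gra.2030 and Gra.2038 have the same ID up to the letter, S or A. Of the members, 22 had such a counterpart with the other letter on the array. The median level of these counterparts was 5.38, and the median gap to their member was 8.04.

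Near the bar the choice of members rested on small gaps. Just inside stood Gra.1291.1.S1_s_at, Gra.2973.1.S1_s_at and GraAffx.1671.1.S1_s_at, with lowest arrays of 11.00, 11.03 and 11.05. Just outside stood Gra.2127.1.S1_s_at, GraAffx.8312.1.S1_s_at and GraAffx.1424.1.S1_s_at, each with a lowest array of 10.99. Replicates of 1 genotype often differed by more than this step.

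The rule kept out probe sets with only 1 genotype fully above the bar, some of them by a small margin. Of 272 Gra and GraAffx probe sets above log2 11 on any array, 36 had both VH8-4602 arrays but not both Guazuncho 2 arrays above the bar, 37 had the reverse, and 18 had neither pair complete. The widest of the first kind was Gra.2791.2.S1_x_at, at 11.73 and 11.80 in VH8-4602 and 6.19 and 6.36 in Guazuncho 2. GraAffx.17435.1.S1_at read 11.75 and 11.69 in VH8-4602, against 7.14 and 7.54 in Guazuncho 2, and GraAffx.28022.1.S1_s_at read 11.24 and 11.40, against 7.79 and 7.66. Of the second kind, Gra.207.1.A1_s_at read 2.17 and 2.34 in VH8-4602, against 12.75 and 12.78 in Guazuncho 2. Gra.1351.1.A1_s_at read 7.79 and 7.79 in VH8-4602, against 12.36 and 12.51 in Guazuncho 2, and Gra.263.4.S1_s_at read 7.32 and 7.40, against 11.44 and 11.49. Their choice fixed these gaps, so they are given with no test. Transcript level and the fit of the probes to each species' sequence both enter the signal, and on these arrays they cannot be told apart.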

How the data were processed

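The authors processed the arrays with GCRMA, as named in the submitters' processing notes; its version is not given in the sources used here. A log2 scale was inferred for the deposited table from its range, since it states no unit. GCRMA corrects background from the base composition of probes, gives all arrays 1 distribution and summarises each probe set, which takes out any shift common to most probe sets.

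No further normalization was applied. AFFX controls (103 of 24132 probe sets) were left out, and 12603 probe sets above log2 4 on at least 2 arrays entered limma 3.58.1 (R 4.3.3; lmFit and eBayes without covariates, Benjamini-Hochberg over all tested). The fit had 2 residual and 2.56 prior degrees of freedom. The test was tested on simulated data with known changes.

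Members, lists, alternatives and the naming rule were chosen with earlier results of these data known. The rule named the 6 members with the highest lowest-array value, the 6 widest differences per direction among those past the test, the widest per suffix, the 3 on each side of the bar, pairs of 1 ID number with opposite calls or the widest gap, and up to 3 probe sets per direction bright in 1 genotype. Names added later are said to be so. Gene lists and cell type markers could not be filled, for lack of a table of genes per probe set. The alternatives were other filters, scales, priors, thresholds, level bars and each array left out.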

Additional observations from a re-analysis of the deposited data

How the results depend on the processing

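Calls among the 69 that also passed elsewhere numbered 64 after quantile normalization, 62 after median centring and 44 on the scale of equal hybridization controls. None of these shared calls changed direction. They numbered 69 with a trended prior (97 passed in all), 55 unfiltered, 69 at a filter of log2 6 and 24 without moderation. These last settings leave each difference as it was, so no direction could change. The share of members that passed was 36.5% after quantile normalization and 37.6% after median centring, beside 46.0% and 45.8% of all probe sets tested. Unfiltered it was 34.8% beside 20.3%, and at a filter of log2 6 it was 43.1% beside 51.3%. Without moderation 29 passed, 14 higher and 15 lower in VH8-4602, a share of 16.02% of the members beside 14.9% of all probe sets tested. Equal hybridization controls gave 73 calls (40.3% of the members, beside 44.6% of all probe sets tested), 8 higher and 65 lower, with no background by direction. They gave a median difference of -0.304 and a median size of 0.363, and put GraAffx.14922.5.A1_s_at at -0.0026. On this scale, which moves every probe set alike, 51 of the 181 members changed sign, called or not. After median centring 12 did so, and after quantile normalization 6. Stricter by construction, an adjusted p under 0.01 left 28 (11 higher, 17 lower), and requiring 2-fold or more left 13 (1 higher, 12 lower). No count over all probe sets was made at an adjusted p under 0.01. A bar of 10 gave 319 members of which 128 passed (63 higher, 65 lower), and a bar of 12 gave 99 of which 31 passed (15 higher, 16 lower). Beside these, 45.9% of all probe sets tested passed in the same fit. No Ghi and GhiAffx background was counted at these bars. When each array was dropped in turn, which takes the single remaining array of a genotype to be as variable as the others, 32 to 40 passed, 11 to 17 higher and 18 to 24 lower, or 17.7% to 22.1% of the members beside 31.9% to 36.5% of all probe sets tested. The median difference then ran from -0.0284 to 0.0026 and the median size from 0.221 to 0.289. Of the 18 named members that passed, 8 lost their call without moderation. No paired analysis was possible because the labels share no array number between the genotypes. With 2 arrays a genotype, the spread estimate limits what can be called among small differences of bright probe sets.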
